A study of Rattus norvegicus with 6 samples.

Results

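Collagen folding and crosslinking enzymes are described here across fibroblasts seeded on enzyme-degraded and intact matrix. The group held 10 genes, chosen by symbol from a table of 17143 genes. They were Serpinh1, P4hb, P4ha1, P4ha2, Plod1, Plod2, Plod3, Lox, Bmp1 and Pcolce, and each was found in 1 row of the table. The cells were Rat-1, an immortal line of rat fibroblasts, lysed for RNA after 4 h on matrix at a seeding of 25000 per well. The extracellular matrix under the cells had been degraded by matrix metalloproteinase 13 (MMP13, 2 libraries), had been degraded by matrix metalloproteinase 1 (MMP1, 2 libraries), or was native (2 libraries). Both proteases are secreted collagenases. Only cells attached to the matrix were lysed, all libraries come from that single line, and no source used here names the tissue behind the matrix. The duplicates are not said to be separate cultures, so the p-values below rest on spread between libraries that may be technical. In bulk RNA, fewer cells of a type and less RNA per cell cannot be told apart.

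Procollagen chains are modified and folded in the endoplasmic reticulum before they leave the cell. Prolyl 4-hydroxylases, tetramers of an alpha subunit (P4ha1, P4ha2) and the protein disulphide isomerase P4hb, hydroxylate prolines and so stabilise the triple helix. Lysyl hydroxylases (Plod1, Plod2, Plod3) prepare lysines for glycosylation and crosslinking, and the chaperone HSP47, encoded by Serpinh1, binds the folded triple helix. Outside the cell Bmp1, helped by the enhancer Pcolce, removes the C-terminal propeptide, and Lox oxidises lysines so that fibrils become crosslinked.

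Levels are given in units, that is, reads the authors divided by a size factor for each library. The shallowest library held 161817 reads and the deepest 362122, so a single read weighed between 0.735 and 1.68 units. A count of 0 allows up to 3 reads, which is 2.21 units in the deepest and 5.04 units in the shallowest library. Such floors, and all intervals on reads below, cover counting error only. The libraries came from the 3' ends of transcripts and units were not divided by length, so levels are compared between libraries and not between genes. The 9 fibroblast markers took 2.68% to 2.97% of reads in every library. The 7 marker lists of other cell types (epithelial, endothelial, leukocyte, cartilage, osteoblast, muscle and tenocyte) took at most 0.0196% each. Of their 33 genes in the table, Epcam and Bglap had 0 reads in every library, but 9 were high enough to be tested. The highest were the tenocyte marker Scx, with a mean of 37.55 units over all libraries, and the cartilage marker Acan, with 22.07 units. Markers of other types were thus not all absent. The ribosomal RNA precursor entry Rn45s took 0.69% and 0.97% of reads in MMP13 libraries, 0.66% and 0.94% in MMP1 libraries, against 0.35% and 0.29% in native libraries. That share was therefore higher on degraded than on native matrix, as Serpinh1 was below. Within each group the duplicate with the larger Rn45s share had the lower Serpinh1 value, in MMP1 libraries by only 686 against 673 units. Matrix and this share changed together between the groups, so the design cannot tell them apart. The part of this share in the results was not tested.

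All 10 genes had at least 5 units in at least 2 libraries and entered the test. None passed limma at a Benjamini-Hochberg adjusted p under 0.05 over the 7284 genes tested. Of all tested genes, 0.412% passed for MMP13 against native, 0.151% for MMP1 against native and 0.0412% for MMP13 against MMP1. At an unadjusted p under 0.05, 2 of 10 stood out for MMP13 against native (Serpinh1 and P4ha1; 8.05% of all tested genes), the same 2 for MMP1 against native (8.24% of all tested genes) and 0 for MMP13 against MMP1 (5.22%). The edgeR test on recovered reads covered 9 of the 10 genes and called 1, 0 and 0 of them in those comparisons, where it called 0.7%, 0.219% and 0.0437% of all genes. DESeq2 called 1 of the 3 it could adjust for MMP13 against native, 0 of 10 for MMP1 against native and 0 of 10 for MMP13 against MMP1, against 4.07%, 0.00679% and 0.00679% of its genes. The single call was Serpinh1 with both tools.

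Libraries of the groups did not overlap for 4 of 10 genes between MMP13 and native matrix, where 37.5% of all tested genes did not overlap. The count was 5 of 10 between MMP1 and native matrix (38.4% of all tested genes) and 2 of 10 between MMP13 and MMP1 (31.4%). These shares lie near the background, or below it for the last comparison. How many of all tested genes set a group apart from all 4 other libraries was not counted, so such patterns below are descriptions. The median log2 fold over the 10 genes was -0.06, 0.04 and 0.03 in the same order, beside 0.0088, 0.016 and -0.0027 over all tested genes. Fold changes are on the scale of log2(value + 1), which understates changes of low genes.

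**Figure D1:**
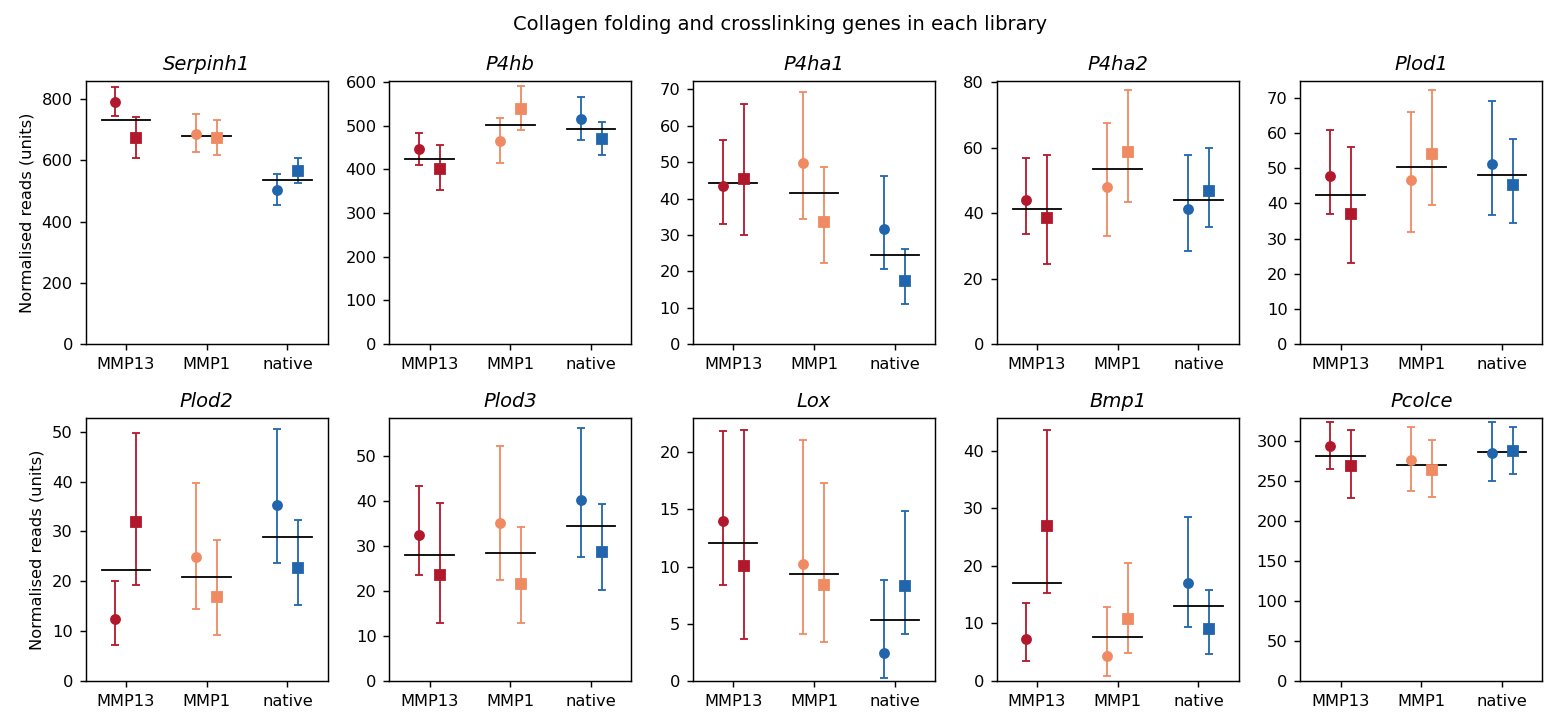
Level of each gene in every library (y axis, normalised reads in units; x axis, matrix). Circles are replicate 1, squares replicate 2, black lines group means, and bars 95% Poisson intervals of the recovered reads, which cover counting error only. Serpinh1 stood at 673 to 791 units in the MMP13 and MMP1 libraries against 503 and 567 units in native libraries, while Pcolce lay between 264 and 293 units throughout.

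The collagen chaperone gene Serpinh1 had 791 and 673 units in MMP13 libraries, 686 and 673 units in MMP1 libraries, and 503 and 567 units in native libraries. All 4 libraries on degraded matrix lay above both native ones, while MMP13 and MMP1 libraries overlapped. Between 401 and 1076 reads stood behind each value. The lowest Poisson bound on degraded matrix was 609 units and the highest on native matrix 608.8 units, so the counting intervals of the groups nearly met.

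Serpinh1 averaged 732 ± 83.4 units on MMP13-degraded matrix and 535 ± 44.9 units on native matrix (SD, n = 2 each). The log2 fold was 0.45 (SE 0.12, 95% interval 0.21 to 0.69), or 1.37-fold, with a limma adjusted p of 0.0584. It did not pass, at rank 33 of 7284 by p where 30 genes passed. It did pass with edgeR (adjusted p = 0.0451), DESeq2 (0.0476), robust limma (0.0335, which called 0.412% of all genes), quantile scaling (0.0102, calling 0.275%) and without native replicate 2 (0.0492, calling 0.495%). The other alternatives left it above the threshold, up to an adjusted p of 0.854 in limma without the intensity trend and 0.891 without native replicate 1. Its log2 fold stayed between 0.33 and 0.57, lowest without MMP13 replicate 1.

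On MMP1-degraded matrix Serpinh1 averaged 680 ± 9.2 units, against 535 ± 44.9 units on native matrix (SD, n = 2 each). The log2 fold was 0.35 (95% interval 0.11 to 0.59; adjusted p = 0.274 by limma), and no alternative took it past the threshold. For MMP13 against MMP1 the log2 fold was 0.10, with an interval of -0.14 to 0.34 (adjusted p = 1.0 by limma). A difference between the degraded matrices was thus not shown, and differences within that interval are not excluded.

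The promoter of Serpinh1 is shown because heat-induced expression of this chaperone is known to run through heat shock elements, and that of Plod2, a lysyl hydroxylase gene whose values overlapped between matrices, because it held the same letters. Sequences are RefSeq promoters of build GRCr8, 250 bases before to 50 bases after the start, written 5′ to 3′ on the gene's strand. Of the 10 genes 8 had an entry, and Lox and Bmp1 had none. Capitals mark the forms TTCNNGAA and GAANNTTC, each its own reverse complement. The Serpinh1 promoter lies at chr1:163062927-163063226 on the minus strand and that of Plod2 at chr8:101964068-101964367 on the plus strand.
Serpinh1: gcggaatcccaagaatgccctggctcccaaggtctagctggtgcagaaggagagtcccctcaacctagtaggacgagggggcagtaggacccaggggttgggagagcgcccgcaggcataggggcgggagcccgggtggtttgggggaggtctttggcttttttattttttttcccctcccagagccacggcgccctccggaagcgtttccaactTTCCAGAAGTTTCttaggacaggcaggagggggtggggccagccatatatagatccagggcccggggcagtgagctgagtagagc
Plod2: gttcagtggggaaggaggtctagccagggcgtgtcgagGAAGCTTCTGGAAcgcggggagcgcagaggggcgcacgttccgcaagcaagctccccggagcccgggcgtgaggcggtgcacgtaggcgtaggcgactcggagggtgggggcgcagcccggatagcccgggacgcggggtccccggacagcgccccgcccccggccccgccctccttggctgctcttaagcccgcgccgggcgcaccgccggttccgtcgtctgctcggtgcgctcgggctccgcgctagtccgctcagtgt
In Serpinh1 both forms were found, overlapping by 3 bases and reaching from -35 to -23 relative to the start. In Plod2 both forms also overlapped, from -212 to -200. At least 1 form was present in 5 of the 8 promoters and in 15.9% of all 33469 promoters, and an overlapping pair in 2 of the 8 and in 0.798% of all. That pair is the arrangement of the 2 promoters printed above, so its count is a description and no independent comparison. A match describes letters in this window and is no evidence of binding.

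Genes that heat shock induces were set beside Serpinh1. Of 10 listed, 8 were tested, and limma called 1 for MMP13 against native and 0 for MMP1 against native, as edgeR and DESeq2 did. Limma called 0.412% and 0.151% of all tested genes in those comparisons. At an unadjusted limma p under 0.05, 3 and 2 of the 8 stood out (8.05% and 8.24% of all tested genes), with genes going both ways in each. The called gene was Hspb1, a small heat shock protein gene, with 276 and 237 units in MMP13 libraries, 244 and 214 units in MMP1 libraries, and 147 and 168 units in native libraries. It rose on MMP13-degraded matrix by a log2 fold of 0.70 (SE 0.19, limma adjusted p = 0.0499), and that call held with edgeR (adjusted p = 0.0235), DESeq2 (0.028), robust limma (0.0335) and the stricter filter (0.0385). It was lost in the other 13 alternatives, among them without each of the 6 libraries in turn (limma adjusted p 0.0653 to 0.734) and without the trend (0.827). The cytosolic chaperone gene Hsp90aa1, named after its values were seen, lay the other way, at 158 and 171 units in MMP13 libraries, 166 and 174 in MMP1 libraries, and 229 and 250 in native libraries (adjusted p = 0.301 for MMP13 against native and 0.386 for MMP1 against native by limma). The inducible Hspa1a and Hspa1b were too low to test, with at most 3.36 units in any library. The median log2 fold of the 8 genes was 0.07 for MMP13 against native and 0.04 for MMP1 against native.

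Over the 6 libraries, the 5 genes with the level pattern most like Serpinh1, among 1066 tested genes with a mean of at least 50 units, were the ribosomal protein gene Rps24 (Pearson r = 0.993 of log2 values), the autophagy receptor gene Sqstm1 (0.987), the respiratory chain subunit gene Cox7b (0.985), the initiation factor gene Eif3d (0.985) and the predicted gene LOC297756 (0.983). As many as 52 of these candidates had an r of at least 0.9 over only 6 libraries that share their depth and size factors, so the likeness is a description.

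P4hb, the disulphide isomerase that forms the beta subunit of prolyl 4-hydroxylase, had 446 and 401 units in MMP13 libraries, 464 and 538 units in MMP1 libraries, and 514 and 469 units in native libraries. Both MMP13 libraries thus lay below all 4 others (37.5% of all tested genes did not overlap for MMP13 against native, 31.4% for MMP13 against MMP1). MMP1 and native libraries overlapped. The log2 fold was -0.22 for MMP13 against native (95% interval -0.49 to 0.05, limma adjusted p = 0.743), 0.02 for MMP1 against native (-0.25 to 0.29) and -0.24 for MMP13 against MMP1 (-0.51 to 0.03, limma adjusted p = 0.990). None of these passed.

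The ratio of Serpinh1 to P4hb within each library was chosen after these values were seen and is given without a test. It was 1.78 and 1.68 in MMP13 libraries, 1.48 and 1.25 in MMP1 libraries, and 0.979 and 1.21 in native libraries. A ratio within 1 library does not depend on the size factor, and both MMP13 values lay above the other 4. The exact binomial 95% intervals were 1.61 to 1.97 and 1.43 to 1.98 in MMP13 libraries, against 0.853 to 1.12 and 1.08 to 1.35 in native libraries. In MMP1 libraries they were 1.28 to 1.71 and 1.10 to 1.42, so both overlapped the interval of native replicate 2.

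**Figure D2:**
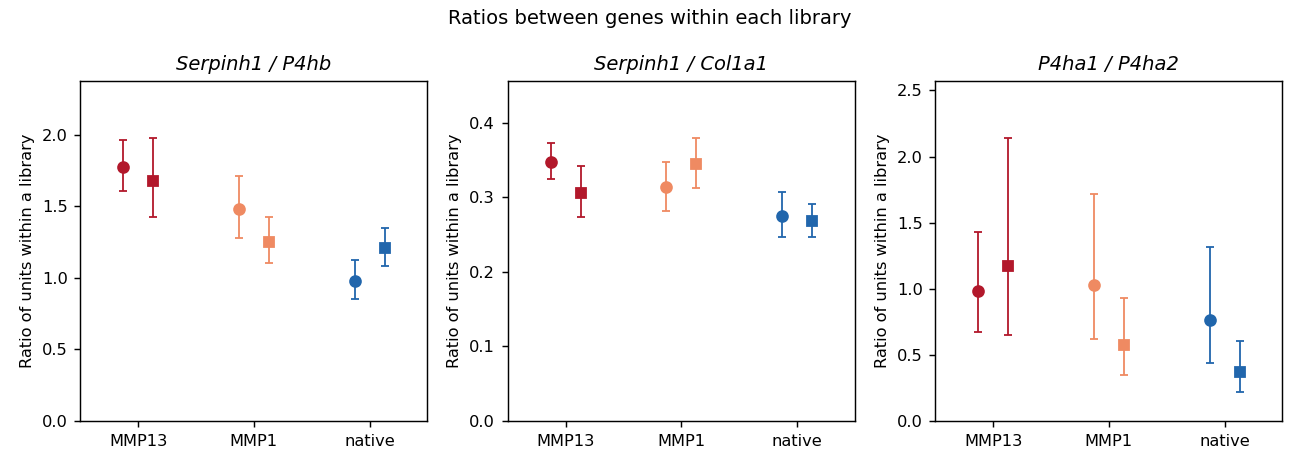
Ratios of units between 2 genes within each library (y axis) by matrix (x axis). Circles are replicate 1, squares replicate 2, and bars exact binomial 95% intervals from recovered reads. Serpinh1 over P4hb was 1.68 and 1.78 in MMP13 libraries against 0.979 and 1.21 in native libraries, and P4ha1 over P4ha2 had intervals as wide as 0.648 to 2.14.

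P4ha1, the catalytic alpha subunit most widely used by fibroblasts and other cells, had the second largest log2 fold of the 10 genes on each degraded matrix. It had 43.4 and 45.3 units in MMP13 libraries, 49.7 and 33.6 units in MMP1 libraries, and 31.6 and 17.4 units in native libraries. The groups did not overlap between either degraded matrix and native, although MMP1 replicate 2 lay close to native replicate 1. Behind these values stood 23 to 59 reads per library.

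P4ha1 averaged 44.4 ± 1.4 units on MMP13-degraded matrix and 24.5 ± 10.1 units on native matrix (SD, n = 2 each). This gave 0.89 as log2 fold (SE 0.38, 95% interval 0.15 to 1.64, limma adjusted p = 0.470). For MMP1 against native the averages were 41.6 ± 11.3 and 24.5 ± 10.1 units and the log2 fold 0.78 (0.03 to 1.52, limma adjusted p = 0.587). Without native replicate 2 the log2 folds were 0.48 for MMP13 and 0.36 for MMP1. Between MMP13 and MMP1 the log2 fold was 0.12 (-0.63 to 0.86).

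P4ha2, the other measured alpha subunit in the group, showed no such separation from native matrix on MMP13. It had 44.1 and 38.6 units in MMP13 libraries, 48.2 and 58.8 units in MMP1 libraries, and 41.3 and 46.8 units in native libraries. MMP1 libraries lay above the other 4, and MMP13 and native libraries overlapped. Log2 folds were -0.09 for MMP13 against native (95% interval -0.75 to 0.58), 0.27 for MMP1 against native (-0.39 to 0.93) and -0.36 for MMP13 against MMP1 (-1.02 to 0.30), and none passed. The ratio of P4ha1 to P4ha2, also chosen after the values were seen and not tested, was 0.983 and 1.17 in MMP13 libraries, 1.03 and 0.571 in MMP1 libraries, and 0.765 and 0.371 in native libraries. The third alpha subunit gene, P4ha3, outside the group, had 53.0 and 75.6 units in MMP13 libraries, 49.7 and 63.6 in MMP1 libraries, and 54.7 and 57.4 in native libraries.

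P4ha1, P4ha2, Plod2 and Lox are known targets of the hypoxia-inducible factors, so letters of their binding core and other hypoxia-inducible genes were looked at. The P4ha1 promoter is shown because this gene had the largest fold among the hydroxylases. It lies at chr20:27844796-27845095 of GRCr8 on the plus strand, and capitals mark ACGTG or GCGTG on either strand (CACGT or CACGC on the printed one).
P4ha1: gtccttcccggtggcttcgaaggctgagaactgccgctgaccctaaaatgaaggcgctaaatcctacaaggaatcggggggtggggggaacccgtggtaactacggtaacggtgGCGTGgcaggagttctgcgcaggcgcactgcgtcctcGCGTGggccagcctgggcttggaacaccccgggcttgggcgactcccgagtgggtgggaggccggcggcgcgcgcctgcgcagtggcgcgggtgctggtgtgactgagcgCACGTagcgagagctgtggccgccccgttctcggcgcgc
The core was found 3 times in P4ha1, 5 times in P4ha2 and 4 times in Plod2. It was present in 7 of the 8 promoters, with none in Serpinh1, and in 41.6% of all promoters of that length. Here and for the heat shock forms, the group's genes were counted by their first entry and the background by every entry. Base composition was not matched, so these shares are not a like comparison.

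Of 14 listed hypoxia-inducible genes 8 were tested, and limma, edgeR and DESeq2 called 0 in any comparison. At an unadjusted limma p under 0.05, 1 stood out in each. Of all tested genes, 8.05% did so for MMP13 against native, 8.24% for MMP1 against native and 5.22% for MMP13 against MMP1. The median log2 fold of the 8 hypoxia-inducible genes was 0.05 for MMP13 against native and 0.08 for MMP1 against native. The lactate dehydrogenase gene Ldha had 306 and 403 units in MMP13 libraries, 286 and 328 units in MMP1 libraries, and 434 and 400 units in native libraries, with a log2 fold of -0.44 for MMP1 against native (limma adjusted p = 0.237). The growth factor gene Vegfa had 36.8 and 25.2 units in MMP13 libraries, 55.5 and 46.8 in MMP1 libraries, and 37.7 and 67.9 in native libraries, with a log2 fold of -0.72 for MMP13 against MMP1 (limma adjusted p = 0.907) that was -0.46 without MMP13 replicate 2.

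**Figure D3:**
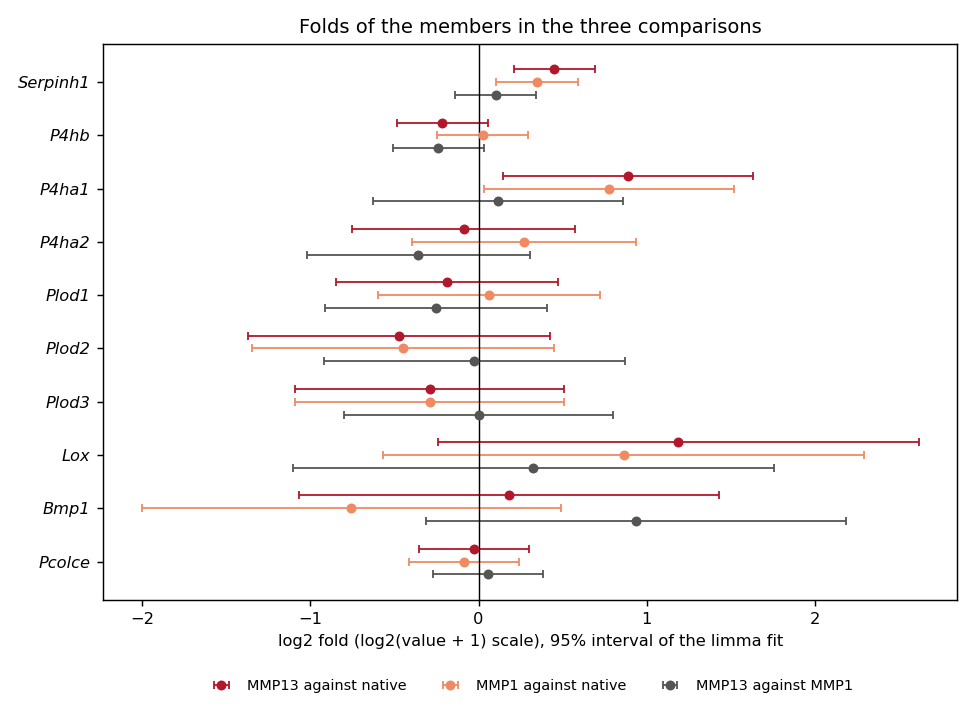
Log2 fold of each gene (x axis, log2(value + 1) scale) in the 3 comparisons, with the 95% interval of the limma fit as bars. The intervals of Serpinh1 and P4ha1 lie above 0 for MMP13 against native and for MMP1 against native, those of the other 8 genes cross 0, and the widest belong to Lox and Bmp1.

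The lysyl hydroxylase genes overlapped between every pair of matrices. Plod1, which acts on helical lysines, had 47.8 and 36.9 units in MMP13 libraries, 46.7 and 54.0 units in MMP1 libraries, and 51.1 and 45.3 units in native libraries. Its log2 folds were -0.19 for MMP13 against native (95% interval -0.85 to 0.47) and 0.06 for MMP1 against native (-0.60 to 0.72).

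Plod2, the enzyme that hydroxylates lysines of the collagen telopeptides, had 12.5 and 31.9 units in MMP13 libraries, 24.8 and 16.8 units in MMP1 libraries, and 35.3 and 22.6 units in native libraries. The MMP13 duplicates differed more than any 2 group means, although they rested on 17 and 19 reads. Its log2 folds were -0.47 for MMP13 against native (95% interval -1.37 to 0.42) and -0.45 for MMP1 against native (-1.35 to 0.45), and its spread between duplicates was 1.36 times the one the fit assumed. Without MMP13 replicate 1 the first fold was 0.17.

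Plod3, which also carries glycosyltransferase activity, had 32.4 and 23.5 units in MMP13 libraries, 35.0 and 21.6 units in MMP1 libraries, and 40.1 and 28.7 units in native libraries. Both its log2 folds were small beside their intervals, at -0.29 for MMP13 against native (95% -1.09 to 0.51) and -0.29 for MMP1 against native (-1.09 to 0.51). Summed over the 3 genes, lysyl hydroxylases had 92.7 and 92.4 units in MMP13 libraries, 107 and 92.4 units in MMP1 libraries, and 126 and 96.6 units in native libraries. Both MMP13 sums lay below the native ones, though close to native replicate 2. The sum was not tested, and 37.5% of all tested genes did not overlap in that comparison.

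Lox, the crosslinking oxidase, had values that rested on 2 to 19 reads. It showed 14.0 and 10.1 units in MMP13 libraries, 10.2 and 8.40 units in MMP1 libraries, and 2.43 and 8.30 units in native libraries. All 4 libraries on degraded matrix lay above both native ones, though MMP1 and native replicate 2 were nearly equal, and native replicate 1 held 2 reads, whose exact 95% Poisson interval reached from 0.294 to 8.78 units. The log2 fold was 1.19 for MMP13 against native (95% interval -0.24 to 2.62, limma adjusted p = 0.721) and 0.86 for MMP1 against native (-0.57 to 2.29). Without native replicate 1 these were 0.47 and 0.14.

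Other oxidases of the family were Loxl1 with a mean of 31.6 units over all libraries, Loxl2 with 19.9, Loxl3 with 13.9 and Loxl4 with 6.86. Loxl3 had 16.2 and 15.1 units in MMP13 libraries, 13.1 and 4.80 units in MMP1 libraries, and 23.1 and 11.3 units in native libraries, and its log2 fold of -0.93 for MMP1 against native did not pass (limma adjusted p = 0.722). That fold was -1.57 without MMP1 replicate 1 and -0.28 without MMP1 replicate 2, and -0.44 without native replicate 1 and -1.41 without native replicate 2. No member of the family was called in any comparison.

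Bmp1, the procollagen C-proteinase, had 7.35 and 26.9 units in MMP13 libraries, 4.38 and 10.8 units in MMP1 libraries, and 17.0 and 9.06 units in native libraries. Every pair of groups overlapped, and the highest and lowest libraries differed 6.13-fold on 3 to 16 reads each. Log2 folds were 0.18 for MMP13 against native (95% interval -1.07 to 1.43), -0.76 for MMP1 against native (-2.0 to 0.49) and 0.94 for MMP13 against MMP1 (-0.31 to 2.18). Its spread between duplicates was 1.44 times the assumed one. MMP13 against native gave 1.05 without MMP13 replicate 1 and -0.69 without MMP13 replicate 2, and MMP13 against MMP1 gave 1.81 and 0.068 without those libraries. MMP1 against native gave -0.19 without MMP1 replicate 1 and -1.32 without MMP1 replicate 2, and -0.34 without native replicate 1 and -1.18 without native replicate 2.

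Pcolce, the enhancer of that proteinase, had the smallest spread of the 10 genes over all libraries. It had 293 and 269 units in MMP13 libraries, 276 and 264 units in MMP1 libraries, and 286 and 288 units in native libraries. The highest and lowest of the 6 libraries differed 1.11-fold, on 160 to 399 reads. Log2 folds were -0.03 for MMP13 against native (95% interval -0.36 to 0.30), -0.09 for MMP1 against native (-0.41 to 0.24) and 0.06 for MMP13 against MMP1 (-0.27 to 0.38).

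Added up, the 10 genes had 1732 and 1557 units in MMP13 libraries, 1646 and 1679 units in MMP1 libraries, and 1522 and 1502 units in native libraries. Without Serpinh1 the sums were 941 and 883 units in MMP13 libraries, 959 and 1006 in MMP1 libraries, and 1019 and 935 in native libraries, which overlapped. Serpinh1 made up 45.7% and 43.3% of the summed units in MMP13 libraries, 41.7% and 40.1% in MMP1 libraries, and 33.1% and 37.7% in native libraries. The totals on degraded matrix lay above those on native matrix, and without this 1 gene they did not.

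Substrate genes were compared in the same libraries. Col1a1, the alpha 1 chain of type I collagen, had 2277 and 2201 units in MMP13 libraries, 2191 and 1953 units in MMP1 libraries, and 1829 and 2115 units in native libraries. Its log2 fold for MMP13 against native was 0.19 (limma adjusted p = 0.489), and with quantile scaling it was -0.16. Col3a1, a chain of type III collagen, had 16.9 and 21.8 units in MMP13 libraries, 5.84 and 9.60 units in MMP1 libraries, and 10.9 and 21.1 units in native libraries, a log2 fold of 1.25 for MMP13 against MMP1 (limma adjusted p = 0.882). Serpinh1 relative to Col1a1 was 0.348 and 0.306 in MMP13 libraries, 0.313 and 0.345 in MMP1 libraries, and 0.275 and 0.268 in native libraries, with no overlap between degraded and native matrix. Counting intervals did overlap, as for MMP13 replicate 2 (0.273 to 0.342) and native replicate 1 (0.246 to 0.307). This ratio was chosen after the values were seen and carries no test. Of 9 substrate genes listed, 6 were tested and limma, edgeR and DESeq2 called 0. At an unadjusted limma p under 0.05, 1, 0 and 1 stood out for MMP13 against native, MMP1 against native and MMP13 against MMP1. The shares of all tested genes were 8.05%, 8.24% and 5.22%. The tested substrates had a median log2 fold of 0.09 for MMP13 against native and 0.06 for MMP1 against native.

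Among 21 other genes of collagen biosynthesis, 13 were tested and the same 3 tools called 0 in any comparison. At an unadjusted limma p under 0.05 the counts were 1, 1 and 0, beside 8.05%, 8.24% and 5.22% of all tested genes. The median log2 fold of the 13 genes was -0.03 for MMP13 against native and 0.01 for MMP1 against native. Colgalt1, which adds galactose to hydroxylysine, had 32.4 and 45.3 units in MMP13 libraries, 51.1 and 55.2 units in MMP1 libraries, and 29.2 and 29.4 units in native libraries. All degraded-matrix libraries lay above the native ones, with a log2 fold of 0.84 for MMP1 against native (limma adjusted p = 0.465). Ppib, the prolyl isomerase cyclophilin B, had 190 and 131 units in MMP13 libraries, 137 and 133 units in MMP1 libraries, and 105 and 126 units in native libraries, with a log2 fold of 0.45 for MMP13 against native (limma adjusted p = 0.572) that was 0.19 without MMP13 replicate 1 and 0.72 without MMP13 replicate 2.

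Among 15 other genes of extracellular processing and crosslinking, 9 were tested and 0 were called by any of the 3 tools. At an unadjusted limma p under 0.05 the counts were 1, 0 and 0, beside 8.05%, 8.24% and 5.22% of all tested genes. The median log2 folds of the 9 genes were -0.0004 for MMP13 against native and -0.16 for MMP1 against native. Sparc, a collagen-binding matricellular protein gene, had 838 and 917 units in MMP13 libraries, 803 and 802 units in MMP1 libraries, and 700 and 794 units in native libraries (log2 fold 0.23 for MMP13 against native, limma adjusted p = 0.583). The N-propeptidase gene Adamts2 had 0 reads in all 6 libraries, and Adamts3 and Adamts14 had at most 3.68 units in any.

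P4hb also belongs to the disulphide isomerases, which fold many secreted proteins. Of 12 genes in a list of that family and of endoplasmic reticulum chaperones, all were tested and 0 were called by any of the 3 tools. At an unadjusted limma p under 0.05 the counts were 0, 1 and 0, beside 8.05%, 8.24% and 5.22% of all tested genes. The median log2 folds of the 12 genes were 0.24 for MMP13 against native and -0.05 for MMP1 against native. The calcium-binding chaperone gene Calr had 1033 and 1029 units in MMP13 libraries, 895 and 892 units in MMP1 libraries, and 1062 and 1053 units in native libraries. Its log2 fold for MMP1 against native was -0.24 (limma adjusted p = 0.472). Hyou1, a chaperone gene induced by stress of the endoplasmic reticulum, had 28.7 and 28.5 units in MMP13 libraries, 19.0 and 12 units in MMP1 libraries, and 24.3 and 15.8 units in native libraries, a log2 fold of 0.88 for MMP13 against MMP1 (limma adjusted p = 0.990) that was 0.57 without MMP1 replicate 2.

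**Figure D4:**
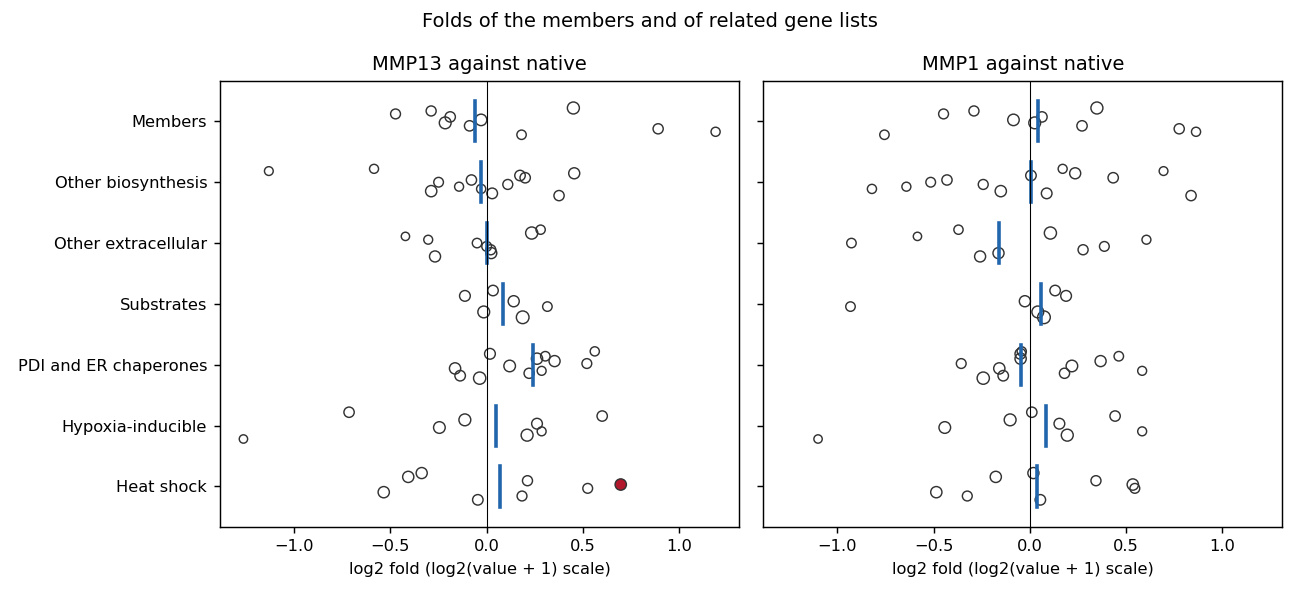
Log2 fold of every tested gene of the group and of 6 related lists (x axis, log2(value + 1) scale; rows, lists; left, MMP13 against native; right, MMP1 against native). Each circle is a gene, larger for a higher mean level, blue bars are list medians and the filled circle is Hspb1, the single gene called. The median of the 10 genes lay at -0.06 on the left and 0.04 on the right.

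The reads of some genes may include those of a neighbour. In the GRCr8 annotation P4ha1 overlaps Snrpd2l and LOC120099055, Plod3 overlaps Mir702 and Znhit1, Lox overlaps Rps3a-ps12 and Bmp1 overlaps LOC134482143. These overlaps are of whole genes in GRCr8, whereas the processing notes list build rn5. Overlap at the 3' ends, from which the reads came, was not checked. Strand use in the counting is not given in the sources used here. Whether reads of a neighbour were counted for these 4 genes is therefore not known. No other row of the table carried the same reads as any of the 10 genes.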

How the data were processed

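Total RNA of 6 Rat-1 libraries was sequenced from 3' ends with a random identifier of 8 nucleotides. The submitters' processing notes list build rn5 and the tools TopHat, bcl2fastq and DESeq. No source used here gives versions, the gene counter, strand use or whether identifiers were collapsed. What the authors deposited is a scaled signal: each library's read counts share a single divisor. Dividing every value above 0 by the lowest one in its library gave whole numbers within 0.01 reads in 100% of cases, and these were taken as the reads.

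Tests used limma 3.58.1 (R 4.3.3) on log2(value + 1), with eBayes and its intensity trend, 1 coefficient per group, no replicate block and 3 residual degrees of freedom, on genes with at least 5 units in at least 2 libraries. The prior degrees of freedom were infinite, so each gene took its error from genes of like level and not from its own duplicates. Duplicates of 3 of the 10 genes scattered more than assumed (38.9% of all tested genes). Alternatives were edgeR 4.0.16 and DESeq2 1.42.0 on recovered reads, other pseudocounts (0.5, 5), filters (none, mean of at least 20 units), scaling and variance models, a replicate block and each library left out. The script was tested on simulated data.

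The genes and lists were chosen with earlier results of these data known. All 10 genes are named, and of each of the 6 related lists by role the called genes or, with none called, the 2 of smallest p, and the 5 genes whose measured levels correlated best with Serpinh1. Cell type markers are given as summed shares. Outside this rule P4ha3, Loxl1, Loxl2, Loxl4, the Adamts and Hspa1 genes, Hsp90aa1, Rn45s, Epcam, Bglap, Scx and Acan were named after their values were seen. Symbols absent from the table were not analysed here. Replicates differed beyond sampling noise (chi-square per degree of freedom 2.10 to 2.54).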

Additional observations from a re-analysis of the deposited data

How the results depend on the processing

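The number of the 10 genes called for MMP13 against native was 0, and 1 (Serpinh1) with edgeR, DESeq2, robust limma and quantile scaling; with a library left out it ran from 0 to 1. For the other comparisons it stayed at 0 in every alternative. Over all genes, the count for MMP1 against native was 11, but 1 with DESeq2 and 0 without the trend, and 3 to 17 with a library left out. For MMP13 against native it was 30, but 0 without the trend, 18 with a pseudocount of 0.5, 13 with no filter and 18 with only the 2 groups compared, and 6 to 35 with a library left out. For MMP13 against MMP1 it was 3, but 0 without the trend and 1 each with DESeq2, quantile scaling and only the 2 groups compared, and 1 to 27 with a library left out. Deviations of libraries sharing a replicate number correlated at 0.0059 (MMP1 and native), -0.072 (MMP13 and native) and -0.045 (MMP13 and MMP1), so the numbers were not treated as pairs. With the replicate block the counts were 11, 21 and 2 for MMP1 against native, MMP13 against native and MMP13 against MMP1, no gene of the group was called, and the call of Hspb1 was lost (adjusted p = 0.0539).

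Of 494 alternative log2 folds of the 10 genes, 469 kept direction and side of the threshold, 5 passed newly and 20 turned sign. None of the 10 genes had passed in the main fit, so no call could be lost. For MMP13 against MMP1, Plod2 turned to 0.025 with DESeq2, and Plod3 to -0.00036 with a pseudocount of 5 and -0.0027 with quantile scaling; Col1a1 for MMP13 against native turned to -0.16 with quantile scaling. With a library left out the folds that turned ranged, for MMP1 against native, from -0.081 to 0.13 (P4hb), -0.040 to 0.16 (Plod1) and -0.63 to 0.046 (Plod3). For MMP13 against native they ranged from -0.18 to 0.0048 (P4ha2), -1.12 to 0.17 (Plod2), -0.69 to 1.05 (Bmp1) and -0.093 to 0.034 (Pcolce). For MMP13 against MMP1 they ranged from -0.014 to 0.22 (Serpinh1), -0.16 to 0.39 (P4ha1), -0.67 to 0.62 (Plod2), -0.33 to 0.34 (Plod3) and -0.0070 to 0.12 (Pcolce). The cause was not tested. These fits leave 1 library in a group, which is assumed to vary like the others. At 2 libraries a group and 2 to 65 reads per value for 7 of the genes, differences within the intervals given are not excluded.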
